A study of Mus musculus with 30 samples.

Results

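Sham-operated mouse hearts were compared between day 7 and day 4 after the operation, to ask how the heart transcriptome differed between these days when the chest had been opened but no coronary artery had been tied. The 10 hearts were taken by their labels, 5 at day 4 and 5 at day 7, out of 30 in the whole series. All were from wild-type C57BL/6J mice that had isoflurane anaesthesia, a thoracotomy and removal of the pericardium on day 0. A parallel arm with the same operation and ligation of the coronary artery (MI, myocardial infarction) gave another 10 hearts at days 4 and 7, used to test whether a difference over time was shared. A further 10 hearts were taken at day 2, sham and MI. All 30 libraries entered 1 fit, so that the MI and day 2 hearts also bear on its filter and its estimate of the spread. The labels do not give the age or sex of the mice, the hour of collection or the part of the heart taken. Replicates are labelled as separate samples, with nothing on separate animals, and the p-values describe the spread among them.

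A thoracotomy without infarction is itself an injury. Opening the chest and the pericardium is known to set off an acute phase response, an interferon and leukocyte response and a shift in fuel use, and the working myocardium lives mainly on fatty acids. Heart muscle also keeps its own circadian clock, in which BMAL1 (Arntl) and CLOCK drive repressors and output genes such as Dbp.

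RNA from each heart was counted per gene, and a gene's level is its share of the library's counts, on the CPM scale. The 10 sham libraries held 7841930 to 10919673 counts and 18668 to 20251 detected genes, and a count of 0 allows up to 3 counts (0.275 to 0.383 CPM, counting error only). Library total, detected genes, the share of the 10 most counted genes and the lung sum given next did not differ between the days beyond their spread (exact permutation tests, 2-sided, adjusted p = 0.698 for each over 4 tests). Cardiomyocyte markers matched the label, with 10 of 10 detected and a summed level of 73238 to 86195 CPM at day 4 and between 70124 and 81028 CPM at day 7. Of the libraries, 5 of 10 also held lung transcripts. The sum of Sftpc, a surfactant gene of the alveolus, and Scgb1a1, from secretory cells of the airway, was 168 and 410 CPM in day 4 replicates 2 and 3, and 234, 392 and 263.5 CPM in day 7 replicates 1, 2 and 3, against at most 0.128 CPM in the other sham libraries. The same 5 libraries held more fat transcripts, with Adipoq, the adipocyte hormone adiponectin, at 28.2 to 68.5 CPM against 1.80 to 10.1 CPM. Each result below was therefore recomputed without them, as 3 against 2 libraries. In the MI arm day 7 replicate 2 also held lung transcripts, with a sum of 1642 CPM, and that fit left it out too.

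Between day 4 and day 7 few genes of the sham heart differed beyond the spread of the libraries, and by modest folds. Of 15537 genes tested, 19 were called at a Benjamini-Hochberg adjusted p under 0.05 in edgeR's quasi-likelihood test, which is 0.122% of the genes. The 8 that rose (0.0515%) included Wwtr1, Jcad and Vash1, genes of growth control and blood vessels, and Adam19 and Rflnb. The 11 that fell (0.0708%) included the tubulin genes Tuba4a and Tubb4b, the fatty acid transporter Slc27a1, the interferon-induced Oas3 and the clock output gene Dbp. Their folds ran from 1.32-fold to 3.64-fold, and the CPM of the days did not overlap for 12 of the 19, 6 of them higher and 6 lower. Over all genes the groups did not overlap for 3.03%, with 1.72% higher and 1.31% lower.

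The calls depended on which libraries entered the fit. A fit of the 10 sham libraries of days 4 and 7 alone called 5 genes in edgeR, 4 of the 19 among them, and one of the 15 sham libraries called 6, again with 4 of the 19. In the 10-library fit all 19 had an unadjusted p under 0.05. Tested against a fold of 1.5 rather than any change, 0 genes were called by edgeR, with 83 at an unadjusted p under 0.05. Leaving out day 4 replicate 4 or day 7 replicate 1 left 0 calls in edgeR, with 1466 and 1400 genes at an unadjusted p under 0.05, and leaving out day 4 replicate 2 or day 7 replicate 3 left 2 and 1. Without day 4 replicate 3, day 7 replicate 5 or day 4 replicate 5 the counts were 12, 9 and 31. Without the 5 sham libraries with lung transcripts and MI day 7 replicate 2, 0 genes were called by edgeR. In that fit 690 had an unadjusted p under 0.05, against 1692 with all libraries. All 19 genes kept their direction there, 17 of them with an unadjusted p under 0.05. All 19 also kept it in the 5 lung-bearing libraries alone. The 19 were called with these same libraries, so that neither this nor their p-values in the 10-library fit are separate support. Over all 30 libraries, DESeq2 called 105 genes between these days, 16 of the 19 among them, and limma voom with sample weights called 99, 18 of the 19 among them. A model with a term for lung transcripts called 28, with all 19 among them.

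**Figure D1:**
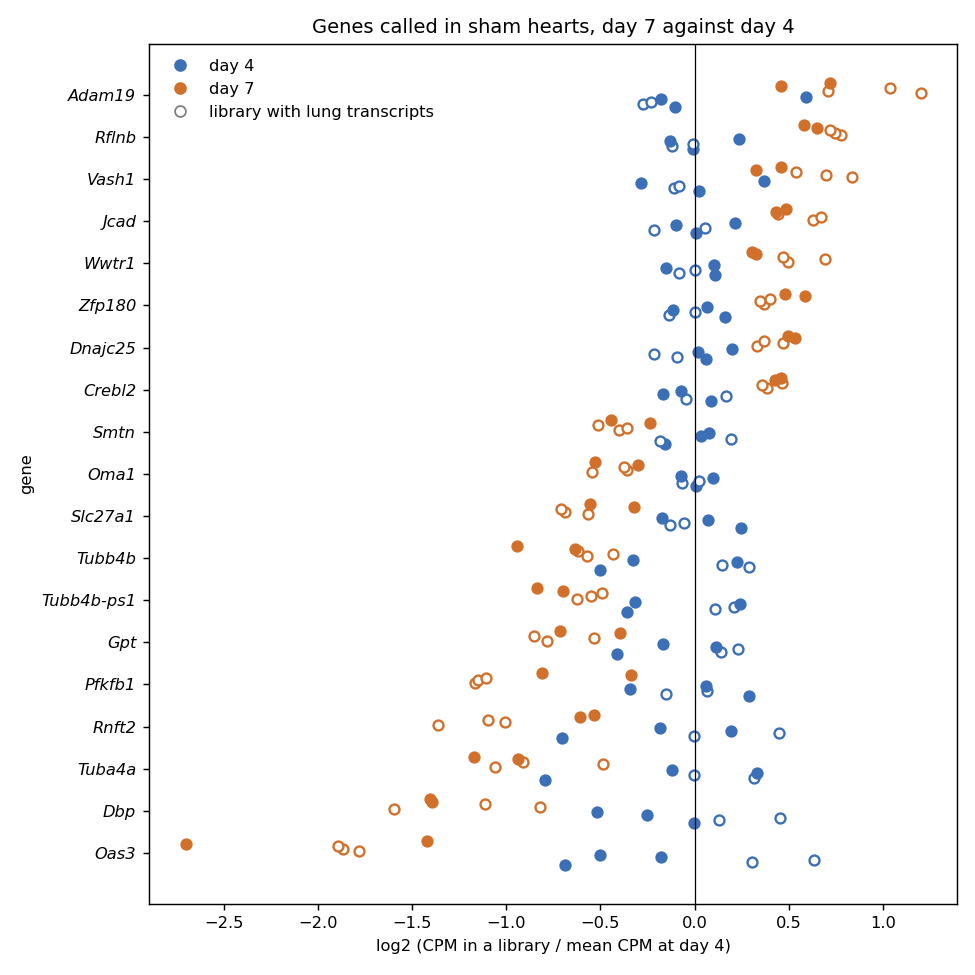
Each of the 19 called genes in the 10 sham libraries, as log2 of the CPM over the day 4 mean of that gene (x axis), with genes in rows from the largest rise at the top to the largest fall at the bottom. Points are single libraries, blue for day 4 and orange for day 7, and open points are libraries with lung transcripts; for 12 genes no orange point reaches into the blue points.

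The tubulin genes Tuba4a and Tubb4b were among the 11 genes that fell, and were set side by side after the calls were seen. Microtubules are polymers of alpha and beta tubulin, and in cardiomyocytes their density sets part of the stiffness of the cell. Tuba4a, an alpha tubulin gene on chromosome 1 (75214228 to 75219865, GRCm38), read 533, 1147, 923, 1162 and 851 CPM in day 4 replicates 1 to 5 and 442, 660, 491, 481 and 410 CPM in day 7 replicates 1 to 5. Only day 4 replicate 1 lay within the range of day 7. Tuba4a fell by 0.91 on the log2 scale (SE 0.15, edgeR adjusted p = 0.0083), and its change without the lung-bearing libraries was -0.94. It kept the call when 8 of the 10 libraries were left out in turn, the most of any called gene. Tubb4b, a beta tubulin gene, read 166, 288, 261, 276 and 188 CPM at day 4 and 159, 175, 154, 152 and 123 CPM at day 7. The day 4 values spread more widely, and the lowest of them lay within the day 7 range. Tubb4b fell by 0.64 (SE 0.12, adjusted p = 0.018), and its processed pseudogene Tubb4b-ps1 fell by 0.65 (SE 0.12, adjusted p = 0.015) from 21.1 to 32.0 CPM to 15.2 to 19.2 CPM. The pseudogene and its parent are near-copies between which reads can be split, so that these are not 2 separate observations.

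Other tubulin genes, chosen after the called genes were seen, did not pass the test. Tuba8 had a log2 fold change of -0.56 (adjusted p = 0.16), Tubb6 of -0.46 (adjusted p = 0.12), Tuba1b of -0.36 (adjusted p = 0.39) and Tubb5 of -0.28 (adjusted p = 0.41). Tuba1a read 69.0 to 105 CPM at day 4 and between 64.3 and 116 CPM at day 7, a log2 fold change of 0.04, which was -0.10 without the lung-bearing libraries. Day 4 replicates 2, 3 and 4 held the highest Tuba4a, Tubb4b and Tuba8 of all 10 libraries. Smtn, which encodes the actin-binding smoothelin, fell as well, by 0.40 (SE 0.08, adjusted p = 0.038), with 138, 136, 176, 158 and 162 CPM at day 4 and 116, 120, 108, 130 and 113 CPM at day 7. Its groups did not overlap.

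Of the called genes that fell, 4 encode proteins of metabolism or of the mitochondrion. Slc27a1 (chromosome 8, 71568882 to 71587302), the fatty acid transport protein FATP1, read 225, 174, 183, 199 and 169 CPM at day 4 and 128, 118, 116, 152 and 129 CPM at day 7. Every day 7 heart lay below every day 4 heart. Slc27a1 fell by 0.57 (SE 0.10, adjusted p = 0.013). Gpt, the alanine aminotransferase that links pyruvate to alanine, read 48.8, 71.7, 76.2, 70.3 and 57.9 CPM at day 4 and 37.7, 44.8, 36.0, 49.4 and 39.7 CPM at day 7, and fell by 0.66 (SE 0.12, adjusted p = 0.013). The groups met only at day 4 replicate 1 and day 7 replicate 4. The change of Gpt was -0.41 without the lung-bearing libraries and -0.90 within them. Pfkfb1, an isoform of the enzyme that makes and breaks down fructose 2,6-bisphosphate, fell by 0.89 (SE 0.17, adjusted p = 0.018) from 12.2 to 18.9 CPM to 6.87 to 12.2 CPM. Its change was -0.58 without the lung-bearing libraries and -1.09 within them. Oma1, a protease of the inner mitochondrial membrane, fell by 0.43 (SE 0.08, adjusted p = 0.018), with 36.9 to 41.4 CPM at day 4 and between 26.6 and 31.5 CPM at day 7, without overlap.

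The list of fatty acid uptake and oxidation genes had 22 members, all of them tested, and none was called. A log2 fold change below 0 was found for 21 of them, and for 8049 of all 15537 genes tested. Of the 22, 10 had an unadjusted p under 0.05 with a lower level at day 7, where 5.73% of all genes tested did. The median log2 fold change of the list was -0.24, and that of all genes -0.01. Acsl1, which couples long-chain fatty acids to coenzyme A, read 1792, 1455, 1402, 1518 and 1218 CPM at day 4 and 995, 990, 869, 1176 and 984 CPM at day 7 (log2 fold change -0.57, SE 0.16, adjusted p = 0.17). Its groups did not overlap. Cpt2, the carnitine palmitoyltransferase of the inner membrane, read 311, 221, 212, 231 and 188 CPM at day 4 and 173, 170, 153, 200 and 172 CPM at day 7 (-0.43, SE 0.14, adjusted p = 0.22). The carnitine carrier Slc25a20 and Hadha, a subunit of the mitochondrial trifunctional protein, had log2 fold changes of -0.42 and -0.42 (adjusted p = 0.22 and 0.23). Without the lung-bearing libraries the median of the list was again -0.24, and 1 of the 22 kept an unadjusted p under 0.05. Day 4 replicate 1, which that fit kept, was the highest heart of either day for Acsl1, Cpt2, Slc25a20 and Hadha. With each library left out in turn the median of the list ran from -0.32 to -0.15, and the change of Hadha from -0.49 to -0.29. Ppargc1a, the coactivator of mitochondrial biogenesis, read 97.5 to 127 CPM at day 4 and between 98.2 and 119 CPM at day 7. The 24 genes of the respiratory chain and the TCA cycle had a median of -0.12, with none at an unadjusted p under 0.05.

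Genes that PPAR receptors induce in fasting were set apart by 1 heart. This list had 12 genes, 11 of which passed the filter on low counts, with 0 called by edgeR and a median log2 fold change of -0.52. Of the 11, 6 had an unadjusted p under 0.05 with lower levels at day 7, where 5.73% of all genes tested did. Pdk4, the kinase that shuts pyruvate out of oxidation, read 1966 CPM in day 4 replicate 1, 267 to 417 CPM in the others of day 4 and 261 to 616 CPM at day 7. Ucp3, a mitochondrial carrier of muscle, read 125 CPM there and at most 61.7 CPM in any other heart. Without day 4 replicate 1 the log2 fold change of Pdk4 moved from -0.83 to 0.15, and the median of the list from -0.52 to -0.19. Of the 11, 3 did not overlap between the days, with lower levels at day 7, Plin5 and Acot2 among them. Over all genes tested this held for 1.31%. Plin5, a lipid droplet coat protein, read 198, 214, 162, 234 and 145 CPM at day 4 and 140, 132, 133, 142 and 124 CPM at day 7 (-0.52, SE 0.14, adjusted p = 0.17), and its change stayed between -0.61 and -0.42 with any library left out. Acot2, a mitochondrial acyl-CoA thioesterase, read 275, 104, 92.3, 117 and 99.4 CPM at day 4 and 79.5, 65.9, 70.5, 89.6 and 68.4 CPM at day 7 (-0.89, SE 0.26, adjusted p = 0.20), and -0.48 without day 4 replicate 1.

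**Figure D2:**
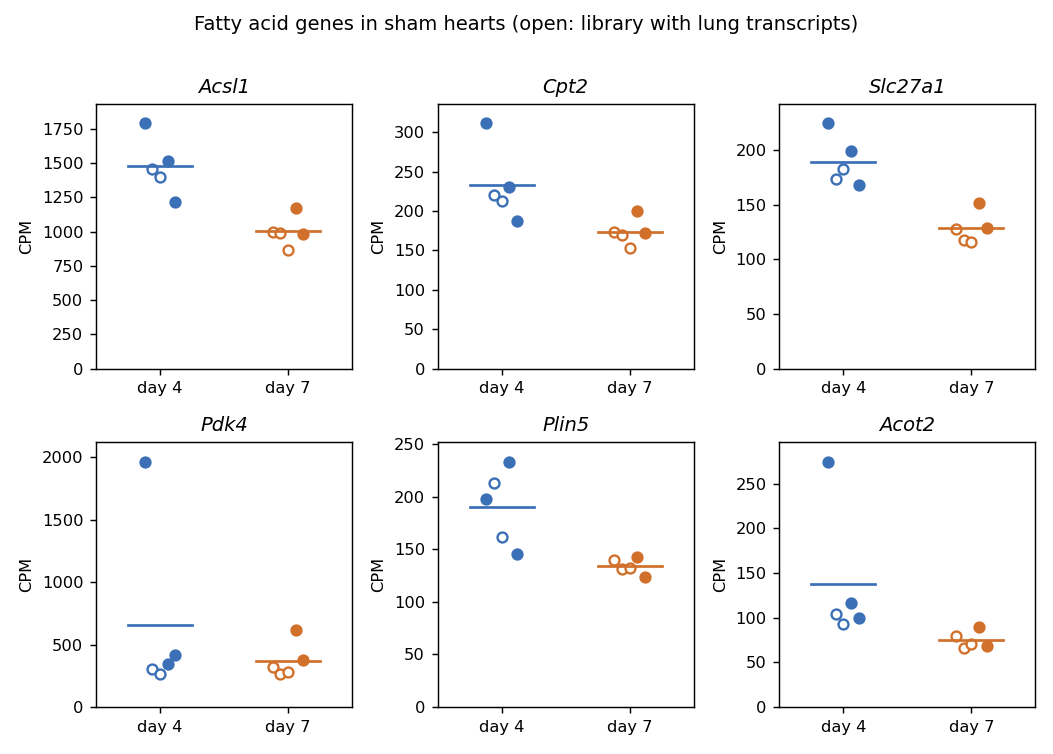
Levels of 6 genes of fatty acid metabolism in CPM (y axis, from 0) in each sham heart at day 4 (blue) and day 7 (orange). Bars are group means and open points are libraries with lung transcripts; in the panels of Pdk4 and Acot2 day 4 replicate 1 (at 1966 and 275 CPM) stands above the rest, while Acsl1 and Slc27a1 are lower in all 5 day 7 hearts.

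Oas3 had the largest fold among the called genes. It encodes an oligoadenylate synthetase that senses double-stranded RNA and is induced by interferons through interferon-stimulated response elements (ISRE) in promoters. It read 2.54, 5.05, 6.36, 3.62 and 2.89 CPM at day 4 and 1.19, 1.12, 1.10, 0.628 and 1.53 CPM at day 7, without overlap. Oas3 was 3.64-fold lower at day 7 (log2 fold change -1.86, SE 0.37, adjusted p = 0.027), and the level was low, at most 54 counts in a library. The log2 fold change was -1.48 without the lung-bearing libraries and -2.30 within them. Sham hearts of day 2, whose libraries carry another prefix, read 0.617 to 1.15 CPM.

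The list of 22 interferon-stimulated genes, which does not hold Oas3, was tested in full. All 22 had a log2 fold change below 0, as did 8049 of all 15537 genes tested. None of the 22 was called, and 9 had an unadjusted p under 0.05 (5.73% of all genes in that direction). The median was -0.39, and -0.51 without the lung-bearing libraries, where 2 had an unadjusted p under 0.05. Ifit1, which binds viral RNA that lacks a proper cap, read 14.9, 24.1, 22.7, 21.4 and 17.9 CPM at day 4 and 14.7, 12.9, 11.7, 13.2 and 8.29 CPM at day 7 (-0.74, SE 0.24, adjusted p = 0.23), without overlap. The ubiquitin-like Isg15 read 13.9 to 24.1 CPM at day 4 and between 9.80 and 14.0 CPM at day 7 (-0.68, adjusted p = 0.28). Zbp1, a sensor of nucleic acid in Z form, read 3.39 to 18.1 CPM and 2.76 to 5.27 CPM (-1.13, adjusted p = 0.22), and Oasl2 and Ifit3 had log2 fold changes of -0.76 and -0.70. Day 4 replicate 1 was the lowest of the day 4 hearts for Oas3 and for each of these 5 genes, and replicates 2 and 3, which held lung transcripts, the highest.

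The promoters of Oas3 and Ifit1 are shown because both hold the ISRE core that interferon-activated factors bind. They are 300 bases, 250 before the start and 50 after it, from RefSeq (GRCm38.p6), at chr5:120777610-120777909 on the minus strand for Oas3 and at chr19:34640639-34640938 on the plus strand for Ifit1. Capitals mark matches to the core searched, GAAA followed after any 2 bases by a second GAAA, on either strand.
Oas3: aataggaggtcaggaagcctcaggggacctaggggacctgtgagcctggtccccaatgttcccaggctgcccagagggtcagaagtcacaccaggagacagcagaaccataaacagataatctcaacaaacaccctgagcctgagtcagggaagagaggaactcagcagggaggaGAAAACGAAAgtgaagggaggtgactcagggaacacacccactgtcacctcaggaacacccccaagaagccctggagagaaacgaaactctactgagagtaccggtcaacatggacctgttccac
Ifit1: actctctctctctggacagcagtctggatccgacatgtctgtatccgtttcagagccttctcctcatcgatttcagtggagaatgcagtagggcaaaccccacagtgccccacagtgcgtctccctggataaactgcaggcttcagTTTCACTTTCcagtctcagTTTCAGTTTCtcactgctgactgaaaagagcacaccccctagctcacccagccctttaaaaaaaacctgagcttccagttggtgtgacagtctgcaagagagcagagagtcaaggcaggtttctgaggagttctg
The match in Oas3 begins 75 bases before the start, and those in Ifit1 begin 104 and 85 bases before it, on the other strand. Promoters matched 15 of the 22 listed genes, and 9 of these genes held the motif in any promoter. They were Bst2, Gbp2, Gbp3, Ifit1, Ifit3, Irgm1, Isg15, Oas1a and Rsad2. Counted per promoter rather than per gene, and so in another unit, 3.44% of all 32851 promoters held the motif. Of the 19 called genes 15 matched a promoter, and Oas3 was the 1 that held it.

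**Figure D3:**
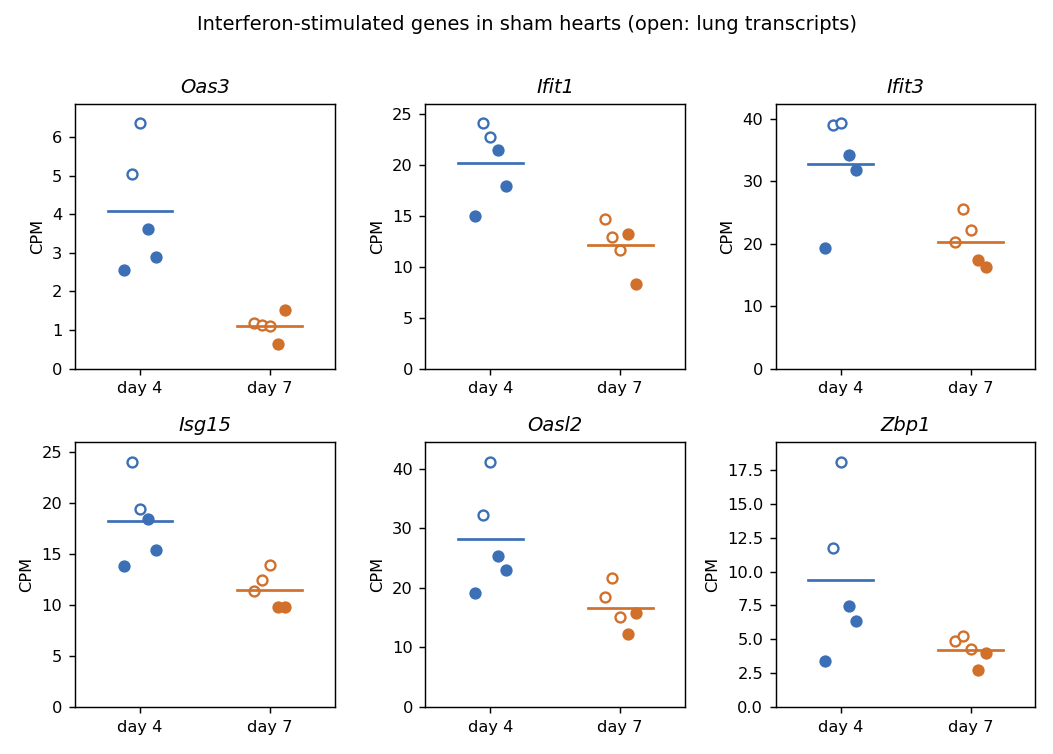
Levels of Oas3 and 5 genes of the interferon list in CPM (y axis, from 0) in each sham heart at day 4 (blue) and day 7 (orange), with group means as bars and libraries with lung transcripts as open points. Oas3 lies between 2.54 and 6.36 CPM at day 4 and between 0.628 and 1.53 CPM at day 7, and in all 6 panels the highest heart is a day 4 heart with lung transcripts.

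Every tested macrophage and leukocyte, inflammatory monocyte and acute phase marker had a negative log2 fold change, and none of them was called. Of all 15537 genes tested, 8049 were below 0. Other leukocyte lists were mixed, with 8 of 12 resident macrophage, 7 of 12 phagocytic macrophage and 8 of 11 tested neutrophil markers below 0, but 8 of 13 antigen presentation and dendritic cell markers and 5 of 7 tested T and NK cell markers above it. All 12 macrophage and leukocyte markers had negative log2 fold changes, with a median of -0.29. Of the 12, 5 had an unadjusted p under 0.05 (5.73% of all genes in that direction). Cd68, a lysosomal protein of macrophages, read 15.9, 20.5, 27.7, 17.9 and 12.8 CPM at day 4 and 10.6, 17.7, 9.68, 9.92 and 10.5 CPM at day 7 (-0.70, SE 0.24, adjusted p = 0.26). Day 7 replicate 2, which held the most alveolar transcripts, was the only day 7 heart inside the day 4 range. The summed level of the 12 markers was 468 to 771 CPM at day 4 and between 394 and 620 CPM at day 7, with the highest values in day 4 replicate 3 and day 7 replicate 2. Both are lung-bearing, and the part of lung tissue in these levels was not tested. All 10 inflammatory monocyte markers were below 0 as well, with a median of -0.57 and 3 at an unadjusted p under 0.05, against the same 5.73%. Fcgr1, the high-affinity Fc receptor, had a log2 fold change of -0.70 (adjusted p = 0.22) and -1.13 without the lung-bearing libraries. In bulk tissue, fewer cells of a type and less RNA per cell cannot be told apart.

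Of 12 acute phase genes, 11 were tested, all with log2 fold changes below 0 and a median of -0.45. Of the 11, 5 had an unadjusted p under 0.05 (5.73% of all genes in that direction). Serpina3n, a protease inhibitor, read 61.4, 71.4, 100.7, 56.3 and 33.3 CPM at day 4 and 20.7, 48.1, 21.6, 25.4 and 29.2 CPM at day 7 (-1.16, SE 0.33, adjusted p = 0.19). Lcn2, the iron-siderophore binder lipocalin 2, read 5.55 to 14.7 CPM and 1.63 to 7.18 CPM (-1.44, adjusted p = 0.34). Stat3, the transcription factor of the response, had -0.36 (adjusted p = 0.22). Without the lung-bearing libraries the median was -0.25, with none at an unadjusted p under 0.05. Serpina3n had a mean of 150 CPM and Lcn2 of 67.2 CPM in the sham hearts of day 2. Days 2 and later differ in library prefix, so that day and prefix cannot be told apart in that comparison. Among 19 cytokine and chemokine genes, 13 had a log2 fold change below 0 and 6 above it. Ccl2, which draws monocytes, and the neutrophil attractant Cxcl5 had -0.96 and -1.53 (adjusted p = 0.36 and 0.27). They were the 2 with an unadjusted p under 0.05 and lower levels, and Tnf was the 1 with higher levels (0.91, adjusted p = 0.44). Over all genes tested, 5.73% were lower and 5.16% higher at that threshold.

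Dbp was the only one of 584 tested genes of the 50 lists that was called. It encodes a PAR bZIP transcription factor whose transcription follows the clock, with a peak and a trough each day. Dbp (chromosome 7, 45705088 to 45710203) read 29.7, 32.5, 40.6, 24.9 and 20.8 CPM at day 4 and 9.80, 16.8, 13.7, 11.3 and 11.2 CPM at day 7. Every day 7 heart lay below every day 4 heart. Dbp was 2.37-fold lower at day 7 (log2 fold change -1.25, SE 0.26, adjusted p = 0.040), and had a change of -1.16 without the lung-bearing libraries. Of the 18 clock genes, 5 had an unadjusted p under 0.05 with higher levels at day 7 and 5 with lower levels, against 5.16% and 5.73% of all genes. The higher ones included Arntl, Clock, Npas2 and Nfil3, which belong to the activating arm or are expressed in phase with Arntl. The lower ones were Dbp, Nr1d1, Per3, Bhlhe40 and Bhlhe41, which are direct targets of BMAL1 and CLOCK. The hour of collection is not given, so that day and hour cannot be told apart for clock genes.

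Among these, Bhlhe41, a repressor, read 35.2, 34.0, 42.5, 33.1 and 35.3 CPM at day 4 and 24.9, 29.8, 22.7, 28.8 and 27.0 CPM at day 7 (-0.44, SE 0.14, adjusted p = 0.22), without overlap. Arntl read 15.6 CPM in day 4 replicate 1 and 23.2 to 35.2 CPM in the other day 4 hearts, against 33.3 to 39.3 CPM at day 7 (0.43, adjusted p = 0.41). Nr1d1, the repressor REV-ERB alpha, and Per3, a period gene, had -0.40 and -0.65 (adjusted p = 0.41 and 0.39). Without the lung-bearing libraries 1 gene of the list was at an unadjusted p under 0.05 in each direction. The E-box CACGTG, the site of BMAL1 and CLOCK, was found in a promoter window of 5 of 15 matched clock genes. They were Bhlhe41, Ciart, Cry1, Per1 and Tef. Counted per promoter rather than per gene, the E-box was found in 7.15% of all promoters. The window of Dbp held none, which speaks only of these 300 bases.

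The change of Dbp over time differed from that in infarcted hearts. In MI hearts Dbp read 7.24, 7.05, 11.0, 15.7 and 9.28 CPM at day 4 and 20.8, 12.9, 25.0, 20.6 and 16.4 CPM at day 7, a rise of 0.93 on the log2 scale (SE 0.26, adjusted p = 0.021). The sham change minus the MI change was -2.17 (SE 0.37, adjusted p = 0.0021). Nr1d2, the repressor REV-ERB beta, differed in the same sense. It read 131, 83.0, 93.7, 79.3 and 84.5 CPM in sham hearts at day 4 and 81.1 to 92.2 CPM at day 7, with no call (-0.13, adjusted p = 0.72), while in MI hearts it rose from 44.7 to 61.8 CPM to 68.0 to 92.6 CPM (0.67, SE 0.11, adjusted p = 0.00038). The sham change minus the MI change was -0.80 (SE 0.16, adjusted p = 0.011). For Dbp and Nr1d2 the day, the arm and the hour of collection, which is not given, cannot be told apart.

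**Figure D4:**
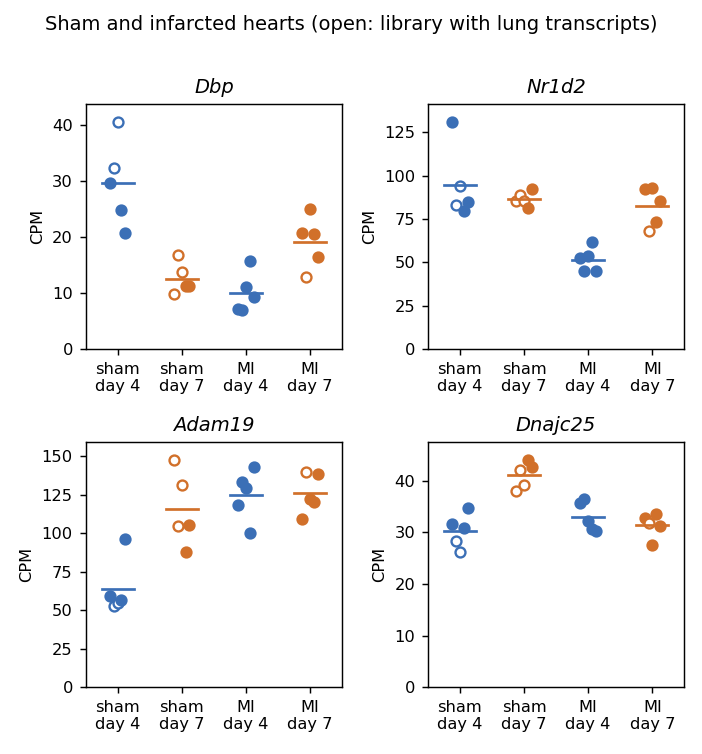
Levels of Dbp, Nr1d2, Adam19 and Dnajc25 in CPM (y axis, from 0) in each sham and each MI heart at day 4 (blue) and day 7 (orange), with group means as bars and libraries with lung transcripts as open points. Dbp goes from 20.8 to 40.6 CPM down to 9.80 to 16.8 CPM in sham hearts and from 7.05 to 15.7 CPM up to 12.9 to 25.0 CPM in MI hearts, while Adam19 and Dnajc25 rose in sham hearts and were not called in MI hearts.

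Over all genes, 158 of 15537 (1.02%) had a change between the days that differed between sham and MI hearts in edgeR's test of the difference, 49 with the sham change above the MI change (0.315%) and 109 below it (0.702%). That count was 97 and 70 without sham day 4 replicates 1 and 3, 99, 95 and 73 without sham day 7 replicates 1, 4 and 5, 76, 73 and 288 without MI day 4 replicates 1, 2 and 5, and 98, 95 and 294 without MI day 7 replicates 2, 4 and 5. Without the libraries with lung transcripts, among them MI day 7 replicate 2, it was 18. In MI hearts 1951 genes (12.6%) were called between the days, against the 19 in sham hearts. Of those 19, 11 were called in the same direction in MI hearts, Dbp was called in the opposite one, and the difference between the arms was called for 3, Dbp, Adam19 and Dnajc25. The log2 fold change of Tuba4a was -0.91 in sham and -1.02 in MI hearts, with a difference of 0.10 (SE 0.20, adjusted p = 0.88).

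The genes that rose at day 7 included several of growth control and of blood vessels. Wwtr1, which encodes TAZ, a coactivator of the Hippo pathway, read 116, 102, 108, 96.8 and 116 CPM at day 4 and 152, 174, 149, 135 and 133 CPM at day 7. Its groups did not overlap. Wwtr1 rose by 0.45 (SE 0.08, adjusted p = 0.013), with a change of 0.29 without the lung-bearing libraries and 0.60 within them. Ankrd1, a cardiac stress gene that TAZ and YAP are known to induce, read 1045, 753, 802, 689 and 1133 CPM at day 4 and 1295, 1099, 1269, 1246 and 1770 CPM at day 7 (0.59, SE 0.16, adjusted p = 0.16). Jcad, a protein of endothelial cell junctions, rose by 0.53 (SE 0.11, adjusted p = 0.034) from 103 to 138 CPM to 161 to 190 CPM, without overlap. Vash1, an inhibitor of angiogenesis that also removes the last tyrosine of alpha tubulin, read 20.1, 18.4, 18.7, 16.3 and 25.6 CPM at day 4 and 35.4, 32.2, 28.8, 24.9 and 27.3 CPM at day 7, and rose by 0.57 (SE 0.12, adjusted p = 0.034). The change of Vash1 was 0.34 without the lung-bearing libraries (edgeR unadjusted p = 0.062) and 0.80 within them. The 15 endothelial markers had a median of -0.04, with none at an unadjusted p under 0.05.

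Adam19, a membrane metalloprotease that sheds neuregulins, read 59.5, 52.9, 54.6, 56.6 and 96.5 CPM at day 4 and 147, 105, 132, 88.1 and 106 CPM at day 7. Day 4 replicate 5 lay within the day 7 range. Adam19 rose by 0.84 (SE 0.15, adjusted p = 0.013) and had a change of 0.45 without the lung-bearing libraries and 1.26 within them. In MI hearts it read 99.9 to 143 CPM at day 4 and between 109 and 139 CPM at day 7, and the sham change minus the MI change was 0.83 (SE 0.21, adjusted p = 0.044). Dnajc25, a J-domain cochaperone, read 31.6, 28.4, 26.1, 30.8 and 34.7 CPM at day 4 and 38.1, 42.0, 39.1, 44.0 and 42.7 CPM at day 7, without overlap. It rose by 0.43 (SE 0.09, adjusted p = 0.034), and its change was above that in MI hearts by 0.51 (SE 0.12, adjusted p = 0.037). Rflnb, which encodes refilin B, an organiser of actin filaments through filamin, rose by 0.69 (SE 0.12, adjusted p = 0.013) from 90.5 to 116 CPM to 148 to 170 CPM, without overlap.

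The transcription regulators Crebl2 and Zfp180 rose without overlap. Crebl2, a bZIP protein related to CREB, read 26.0, 23.6, 27.4, 21.7 and 23.2 CPM at day 4 and 31.9, 31.3, 33.6, 32.8 and 33.5 CPM at day 7 (0.41, SE 0.08, adjusted p = 0.034). Zfp180, a zinc finger protein, went from 24.2 to 29.7 CPM to 33.7 to 39.8 CPM (0.43, SE 0.09, adjusted p = 0.040). Rnft2, a RING finger protein of low level, fell by 0.90 (SE 0.18, adjusted p = 0.034), with 3.18, 5.16, 7.07, 5.93 and 4.55 CPM at day 4 and 2.01, 2.58, 2.42, 3.39 and 3.57 CPM at day 7. Its change was -0.40 without the lung-bearing libraries and -1.38 within them.

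Atrial genes had the highest median of the lists with more than 5 genes tested apart from those of the lung, with none called. The 6 atrial myocyte markers had log2 fold changes above 0, as did 7485 of all 15537 genes tested. The median of the 6 was 0.73, and 5 of them had an unadjusted p under 0.05 (5.16% of all genes in that direction). Bmp10, a growth factor of the atrial wall, read 15.4, 22, 66.2, 2.21 and 41.3 CPM at day 4 and 89.5, 116, 74.2, 122 and 85.4 CPM at day 7 (1.76, SE 0.51, adjusted p = 0.20). The groups did not overlap, and the day 4 hearts differed among themselves by more than the day 7 hearts did. The atrial light chain Myl7 read 217, 424, 551, 318 and 272 CPM at day 4 and 608, 521, 771, 669 and 375 CPM at day 7 (0.73, adjusted p = 0.39). Sln, the sarcolipin that restrains the calcium pump, had 1.01 (adjusted p = 0.37), and Nppa, atrial natriuretic peptide, 0.61 (adjusted p = 0.20). The summed level of the 6 markers was 1218 to 2903 CPM at day 4 and between 2274 and 3801 CPM at day 7, and the part of the heart taken is not given, so that the share of atrium and the level per cell cannot be told apart. Without the lung-bearing libraries the median was 0.93.

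Of 14 cardiac stress and fetal genes, 3 had an unadjusted p under 0.05 with higher levels at day 7 (Ankrd1, Nppa and Nppb) and 2 with lower levels, Sprr1a among them. Over all genes tested, 5.16% were higher and 5.73% lower at that threshold. Nppb, B-type natriuretic peptide, read 285, 198, 97.4, 211 and 264 CPM at day 4 and 266, 331, 387, 346 and 249 CPM at day 7 (0.56, SE 0.26, adjusted p = 0.43). Sprr1a, a stress-induced cornified envelope protein, read 0.212 CPM in day 4 replicate 1 and 1.41 to 3.77 CPM in the other day 4 hearts, against 0.0916 to 0.561 CPM at day 7 (adjusted p = 0.19). Several of these values rest on 5 counts or fewer. Skeletal actin, Acta1, read 221 to 489 CPM at day 4 and between 367 and 586 CPM at day 7 (0.48, adjusted p = 0.60). The 20 contractile and calcium handling genes had a median of -0.07. Cardiac actin, Actc1, read 10232 to 12277 CPM and 7766 to 10255 CPM (-0.37, adjusted p = 0.22), and Myh6, the main heavy chain of the adult mouse ventricle, 14011 to 21136 CPM and 10407 to 17921 CPM (-0.29, adjusted p = 0.64).

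No matrix or proliferation gene of the lists was called, and most log2 fold changes were below 0. All 24 collagen and collagen processing genes had a log2 fold change below 0, with a median of -0.31 (-0.33 without the lung-bearing libraries), and 1 of them, the lysyl oxidase relative Loxl2, had an unadjusted p under 0.05 (-0.46, adjusted p = 0.42). Of all 15537 genes tested, 8049 were below 0, and 5.73% were lower at an unadjusted p under 0.05. Col1a1, the main fibrillar collagen, read 749, 560, 1170, 501 and 424 CPM at day 4 and 477, 825, 360, 326 and 463 CPM at day 7 (-0.48, SE 0.31, adjusted p = 0.60). Timp1, an inhibitor of matrix metalloproteases, read 14.1 to 23.9 CPM at day 4, 23.9 CPM in day 7 replicate 2 and 7.03 to 11.6 CPM in the other day 7 hearts. Its log2 fold change was -0.71 (adjusted p = 0.27), and -1.08 with a call (adjusted p = 0.038) when day 7 replicate 2 was left out. That heart was also the highest of day 7 for Col3a1, Postn, Tnc and Spp1. Postn, a matricellular protein of activated fibroblasts, had a log2 fold change of -0.11, and 0.15 without day 4 replicate 1, its highest heart at 336 CPM. Pdgfra, the receptor that marks fibroblasts, had -0.43 (adjusted p = 0.42), and the summed level of 10 fibroblast markers was 2396 to 3282 CPM at day 4 and between 1920 and 2698 CPM at day 7.

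Of 26 cell cycle genes, 23 had a log2 fold change below 0, with a median of -0.39 and 3 at an unadjusted p under 0.05. Of all 15537 genes tested, 8049 were below 0, and 5.73% were lower at that threshold. Mki67, the proliferation marker, read 26.7 CPM in day 4 replicate 3, 8.65 to 11.8 CPM in the other day 4 hearts and 5.83 to 10.2 CPM at day 7 (-0.70, adjusted p = 0.44; -0.34 without that replicate). Bub1b, a kinase of the spindle checkpoint, read 5.19, 5.16, 7.77, 4.12 and 2.55 CPM at day 4 and 2.75, 3.48, 3.19, 1.38 and 2.55 CPM at day 7 (-0.88, SE 0.28, adjusted p = 0.23). Day 4 replicate 5 lay within the day 7 range. Of 19 glycolysis and hypoxia genes, 3 had an unadjusted p under 0.05 and lower levels, against the same 5.73% of all genes. Pfkl, the liver form of phosphofructokinase, read 169 to 214 CPM at day 4 and between 128 and 156 CPM at day 7 (-0.41, SE 0.10, adjusted p = 0.12), and Pkm, pyruvate kinase, 1325 to 1470 CPM and 1016 to 1227 CPM (-0.31, SE 0.09, adjusted p = 0.22). Of the 19, 5 did not overlap between the days, with lower levels at day 7, Pfkl and Pkm among them. Over all genes tested this held for 1.31%. Srebf1, a regulator of lipid synthesis, had -0.59 (SE 0.16, adjusted p = 0.17). The unfolded protein response (18 genes, median 0.02), glucocorticoid-responsive genes (13, median -0.07) and immediate-early genes (21, median -0.03) had no member at an unadjusted p under 0.05.

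**Figure D5:**
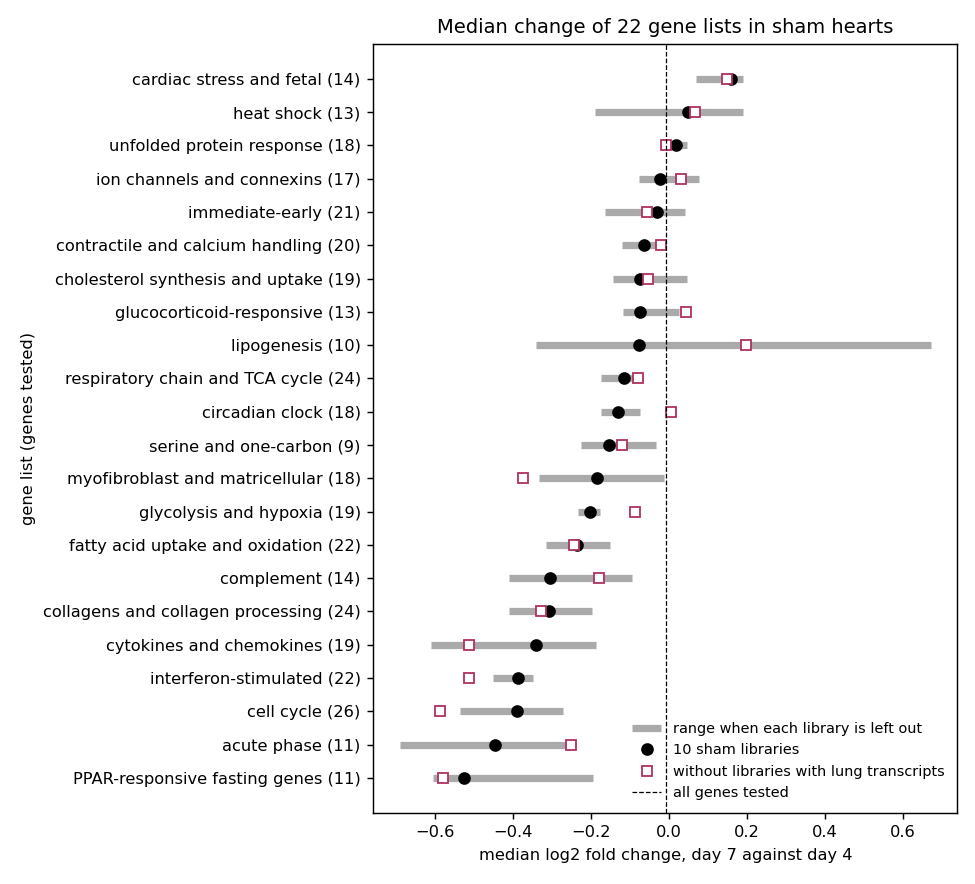
Median log2 fold change, day 7 against day 4 (x axis), of 22 gene lists with the number of tested genes in brackets (y axis). Black points are all 10 sham libraries, open squares the libraries without lung transcripts, grey bars the range when each library is left out in turn, and the dashed line the median of all genes tested (-0.01); the lowest list is that of PPAR-responsive fasting genes at -0.52 and its bar reaches -0.19.

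Over all genes tested, called genes and list members included, those averaging 10 CPM or more without overlap between the days were ranked by fold. The 5 with the largest positive changes were Bmp10, Fgf12, Plet1os, Rflnb and Zfp979, and the 5 with the largest negative ones Dbp, Acot2, Gm10435, Fbp2 and Ifit1. Fgf12, an intracellular fibroblast growth factor homologue that modulates sodium channels, read 8.37, 9.99, 15.3, 8.75 and 12.5 CPM at day 4 and 21.4, 22.8, 24.1, 25.6 and 15.6 CPM at day 7 (0.99, SE 0.30, adjusted p = 0.22). Fbp2, the muscle fructose-1,6-bisphosphatase, read 61.2, 29.4, 27.1, 29.96 and 26.6 CPM at day 4 and 21.0, 18.1, 19.9, 24.7 and 15.6 CPM at day 7 (-0.83, SE 0.20, adjusted p = 0.12), and -0.52 without day 4 replicate 1. Gm10435 and Plet1os are annotated as antisense genes, with log2 fold changes of -0.89 and 0.75. Whether the counting used strand is not given in the sources used here, so that their reads cannot be told apart from those of their partners.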

How the data were processed

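RNA libraries of mouse hearts were made with a directional kit and sequenced as paired reads, per the labels' protocols. The deposited files hold counts per Ensembl gene that the authors made with bcl2fastq 2.20.0 and featureCounts on GRCm38, per the submitters' processing notes. Aligner and strand setting: not given in the sources used here. GENCODE symbols named 97.5% of 43629 identifiers.

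All 30 libraries in 6 groups were fitted once in edgeR 4.0.16 (R 4.3.3): filterByExpr (minimum count 10, minimum total 15), TMM factors, robust quasi-likelihood F test, 2-sided, Benjamini-Hochberg adjusted over 15537 genes and called under 0.05. The change in sham hearts, in MI hearts and their difference were contrasts of this fit. CPM are counts over library totals, which were 7841930 to 10919673 in the 10 sham libraries compared and 7841930 to 14070017 in all 30. Lung-bearing libraries are those in which Sftpc plus Scgb1a1 reached 50 CPM, namely the sham libraries named above and MI day 7 replicate 2. Exact permutation tests used scipy 1.17.1, and figures matplotlib 3.10.9. Alternatives were median-ratio factors, DESeq2 1.42.0, limma 3.58.1 voom, other filters, a fold test, a replicate block, other sets of libraries, lung terms and leaving out each library.

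Named genes are the called genes, a fixed set, up to 2 genes per list and the 5 largest changes without overlap in each direction; not all are printed, some listed genes are not reported here, and tubulin genes were added after the calls were seen. The groups compared, the 50 lists and the rule were chosen with earlier results of these data known. On simulated data for this comparison (15537 genes) the test called 53% of 100 genes changed 1.5-fold and 77% of 100 changed 2-fold, and 3.7% of its calls were unchanged genes.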

Additional observations from a re-analysis of the deposited data

Results flagged for a closer look

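Single hearts stood apart from the others of their group for 19 of 184 groups of 5 values examined, by a gap to the nearest heart of more than 0.71 of the group's range. Chance flags about 1 in 20 groups of independent normal values. These were untransformed CPM of named genes, some of which moved together, so that no excess over chance can be read from the 19. Day 4 replicate 1 gave 7 of the 19, each as the highest of its group: Pdk4 at 1966 CPM (267 to 417 in the others), Acot2 at 275 CPM, Ucp3 at 125 CPM, Fbp2 at 61.2 CPM (26.6 to 29.96), Hadha at 2200 CPM, Nr1d2 at 131 CPM and the heat shock gene Hspa1a at 11.9 CPM (2.71 to 4.22). This heart had no lung transcripts.

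Day 7 replicate 2, the heart with Sftpc at 333 CPM, gave 7. It was highest for Col3a1 at 2339 CPM (791 to 1170 in the others), Postn at 319 CPM, Tnc at 26.7 CPM (4.27 to 8.67), Loxl2 at 40.1 CPM, Timp1 at 23.9 CPM, Spp1, a matricellular protein of macrophages, at 27.0 CPM (5.31 to 8.67) and Cd68 at 17.7 CPM. Day 4 replicate 3, one of the lung-bearing hearts, was highest for Mki67 at 26.7 CPM, Tnc at 25.6 CPM and Bhlhe41 at 42.5 CPM. Adam19 read 96.5 CPM in day 4 replicate 5 (52.9 to 59.5 in the others), and Hspa1a 57.0 CPM in day 7 replicate 4 (1.91 to 7.51).

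The change between day 4 and day 7 differed between sham and MI hearts for 4 of the genes named, by edgeR's test of the difference. On the log2 scale the sham change minus the MI change was -2.17 for Dbp and -0.80 for Nr1d2 (adjusted p = 0.0021 and 0.011). For Adam19 and Dnajc25 it was 0.83 and 0.51 (adjusted p = 0.044 and 0.037). For the clock genes Dbp and Nr1d2 the hour of collection, which is not given, cannot be told apart from day and arm.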

How the results depend on the processing

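The 19 calls between the days became 105 with DESeq2, 99 with voom and sample weights, 12 without a filter on low counts, 0 in a test against a fold of 1.5 (83 genes at an unadjusted p under 0.05), 5 in a fit of the 10 libraries alone, 10 in one of the 20 libraries of days 4 and 7, 6 in one of the 15 sham libraries, 0 without lung-bearing libraries, 6 within them, and 0 to 31 with each library left out; the cause was not tested. With median-ratio factors it was 18, with a mean of at least 1 CPM 19, and with lung terms 28 and 24. The replicate block gave 13 calls, 12 of them among the 19. No label says that the numbers pair the samples. Same-numbered hearts had correlations of -0.236 to 0.349, and 1 of 5 correlated best with its own number. With 5 hearts per day, some of them lung-bearing, this cannot exclude pairing.

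The 158 differences between arms became 419 (DESeq2), 277 (voom), 84 (no filter), 11 (fold test), 89 (only the 20 libraries), 18 (without lung-bearing libraries), 89 (lung covariate), 108 (replicate block) and 70 to 294 with each library left out.

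Each of the 19 genes was followed through 10 fits with a library left out and 14 other alternatives, which gave 456 gene-by-fit results. None of the 456 reversed, and 220 lost the call. These fits reuse libraries that gave the calls, so that kept directions are no separate support. Reversals among 69 other named genes were Tuba1a without lung-bearing libraries (-0.10; -0.058 to 0.12 with libraries left out), and, within lung-bearing libraries, Ppargc1a (0.078; -0.076 to 0.018 with libraries left out), Pdk4 (0.011; -1.11 to 0.15) and Postn (0.22; -0.36 to 0.15). With libraries left out, Nr1d2 ranged from -0.17 to 0.017, Hspa1a from -0.58 to 2.02 and the difference in detected genes from -16.75 to 403.65.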

Other observations

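The lung-bearing hearts differed in the kind of lung transcript they held. Summed levels of 11 alveolar epithelial markers and of 7 airway secretory markers were 612 and 115 CPM in day 7 replicate 2, while the other 4 held 19.0 to 94.1 CPM of alveolar and 340 to 898 CPM of airway secretory transcripts. The 13 B and plasma cell markers summed to 203 to 865 CPM in the 5 lung-bearing hearts. In the other 5 the sum was 17.1 to 30.4 CPM, except for 280.5 CPM in day 7 replicate 5, which held no lung transcripts. The median log2 fold change of that list was -0.33 over all 10 libraries and 1.51 without the lung-bearing ones.

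Red cell transcripts stood out in day 4 replicate 1, the heart with the high Pdk4. Its 7 erythroid markers summed to 3498 CPM, and those of the other 9 sham hearts to 722 to 1582 CPM. The 14 neutrophil markers summed to between 10.4 and 92.7 CPM at day 4 and between 7.54 and 32.3 CPM at day 7, with the highest value in day 4 replicate 3, and Ly6g, which marks neutrophils, had no count in any of the 10 libraries. The 13 antigen presentation and dendritic cell markers had a median log2 fold change of 0.12, with none at an unadjusted p under 0.05.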
